A study of Rattus norvegicus with 12 samples.

Results

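Heart muscle cells are joined end to end at the intercalated disc, and the 10 genes described here encode the adhesion machinery of that junction: the desmosomal genes Dsp, Pkp2, Jup, Dsg2 and Dsc2, the N-cadherin complex genes Cdh2, Ctnna3, Ctnnb1 and Vcl, and the scaffold gene Tjp1. They were listed by name, with no threshold on their values, and are 10 of the 30560 genes in the count table of left ventricular RNA from 12 rats. The row of each gene was found by its symbol for 9 of them. Ctnna3 has no row under its symbol and was found through its RefSeq synonym AABR07044900.1 (ENSRNOG00000000373). All 10 genes had enough reads to be tested.

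The rats were Wistar males operated on at 7 weeks of age. Sham rats (12, 17, 32 and 38) had the surgery without ligation and received the vehicle, carboxymethylcellulose, by daily gavage. MI rats (36, 57, 61 and 89) had a permanent ligation of the left anterior descending coronary artery, which kills the muscle downstream of it, and the same vehicle. MI + UA rats (29, 58, 64 and 66) had the ligation and received urolithin A (UA), a gut bacterial metabolite of plant ellagitannins, for 8 weeks as the others received vehicle. Each group has 4 rats with 1 library each, made from 20 µm sections of formalin-fixed, paraffin-embedded heart tissue. Scar and surviving muscle can enter a library together. Rats with small infarcts had been removed on the basis of a first echocardiography, so the MI groups stand for larger infarcts. Rat 66 is MI + UA by its label but stands among the vehicle-treated MI rats in an echocardiography table. It was counted as labelled, and some of the results it decides, but not all, are also given with it in MI.

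In a desmosome, the cadherins desmoglein (Dsg2) and desmocollin (Dsc2) reach across to the neighboring cell, plakoglobin (Jup) and plakophilin (Pkp2) bind their tails, and desmoplakin (Dsp) ties the plaque to the desmin filaments. In the fascia adherens, N-cadherin (Cdh2) binds β-catenin (Ctnnb1) or plakoglobin, and α-catenins (Ctnna3 in heart muscle, Ctnna1 in most cells) and vinculin (Vcl) pass the pull on to actin. Tjp1 encodes ZO-1, which also binds the gap junction protein connexin 43. In humans, variants in the desmosomal genes are a known cause of arrhythmogenic cardiomyopathy. Ctnnb1, Vcl and Tjp1 are used by most cell types, so in whole tissue their reads may come from more than the muscle cells. The cell source of the reads was not measured for any of these genes.

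The DNA just upstream of 4 of these genes is shown to let a reader set the genes side by side: Dsp, Jup and Ctnna3, which had the firmest differences between MI and Sham, and Vcl, which did not pass the test. Each run is the 250 bases before the start site in RefSeq's table for GRCr8, a newer build than the one used for counting, 5′ to 3′ on the gene's strand, which is the minus strand for all 4. Capitals mark the GC box letters GGGCGG and the MCAT letters CATTCC, each read on both strands.
Dsp, chr17:26877122-26877371: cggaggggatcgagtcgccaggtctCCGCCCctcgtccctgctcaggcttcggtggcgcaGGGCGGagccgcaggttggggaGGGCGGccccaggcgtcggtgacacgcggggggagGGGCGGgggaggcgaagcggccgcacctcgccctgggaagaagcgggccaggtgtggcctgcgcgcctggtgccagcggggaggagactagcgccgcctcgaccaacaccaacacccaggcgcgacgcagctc
Jup, chr10:85827430-85827679: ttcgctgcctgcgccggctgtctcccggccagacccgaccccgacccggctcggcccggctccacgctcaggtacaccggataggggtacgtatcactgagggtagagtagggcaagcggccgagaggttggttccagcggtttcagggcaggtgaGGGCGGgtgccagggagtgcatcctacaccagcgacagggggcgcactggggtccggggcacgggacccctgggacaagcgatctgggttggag
Ctnna3, chr20:25137999-25138248: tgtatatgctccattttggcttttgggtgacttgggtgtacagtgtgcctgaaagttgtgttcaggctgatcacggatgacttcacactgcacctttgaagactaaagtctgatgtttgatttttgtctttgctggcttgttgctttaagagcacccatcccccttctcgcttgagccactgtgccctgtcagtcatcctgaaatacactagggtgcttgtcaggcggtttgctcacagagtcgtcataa
Vcl, chr15:3404801-3405050: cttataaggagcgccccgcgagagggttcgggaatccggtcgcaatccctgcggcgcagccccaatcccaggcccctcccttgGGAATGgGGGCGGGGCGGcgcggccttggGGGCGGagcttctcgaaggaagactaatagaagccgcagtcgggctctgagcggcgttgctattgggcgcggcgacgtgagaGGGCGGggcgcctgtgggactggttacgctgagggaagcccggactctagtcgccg
RefSeq's table held such a window for 8 of the 10 genes. The GC box letters were in 5 of those 8 windows (Dsp, Jup, Dsg2, Dsc2 and Vcl) and in 30.5% of all 33469 windows of this length. The window of Dsp held 4 of them and had a GC content of 75.2%, against a median of 51.2% over all windows. Ctnna3 differed from Dsp and Jup in this respect, with 47.2% GC and none of the searched letters, although all 3 genes were lower in MI. The MCAT letters, in 12.1% of all windows, were found in that of Vcl alone among the 8. The letters AGATAA (10.3% of all windows) and TATAAA (12.9%) were in none of the 8.

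Reads assigned to genes numbered from 6228706 to 19031695 per library, and the 10 genes had between 97 (Dsc2) and 12456 (Dsp) reads in a library. Values are given as CPM, the reads of a gene scaled to libraries of equal size with TMM factors, and since they are not divided by transcript length they can be compared between rats but not between genes. The share of uniquely mapped reads that fell on genes was 50.4% to 53.4% in Sham and 47.6% to 49.8% in MI, without overlap, and its part in the results below was not tested. Differences were tested with edgeR's quasi-likelihood test over 18182 genes, with Benjamini-Hochberg adjustment over all of them, and a gene is called changed where its adjusted p-value is under 0.05. Each rat is a separate animal, so the p-values measure the spread between animals.

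The first comparison, MI versus Sham, asks what the infarction did to the junction genes. All 10 were below Sham on average, and 6 fell: 4 of the 5 desmosomal genes (Dsp, Jup, Pkp2 and Dsc2) and, of the fascia adherens, Cdh2 and the muscle α-catenin Ctnna3. The falls were modest, from 17.4% for Cdh2 to 29.7% for Ctnna3, and in bulk tissue fewer muscle cells and less RNA per muscle cell cannot be told apart. Of all genes tested, 5.53% were called lower, and 47.0% had a log2 fold change below 0. Among the 11986 genes with an average log2 CPM of at least 1, the range in which these genes lie, these shares were 8.21% and 50.2%. The median log2 fold change was -0.32 over the 10 genes and 0.03 over all genes tested. In 7 of the 10 genes every MI rat was below every Sham rat (the 6 called and Tjp1), which was so for 7.56% of all genes tested.

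**Figure D1:**
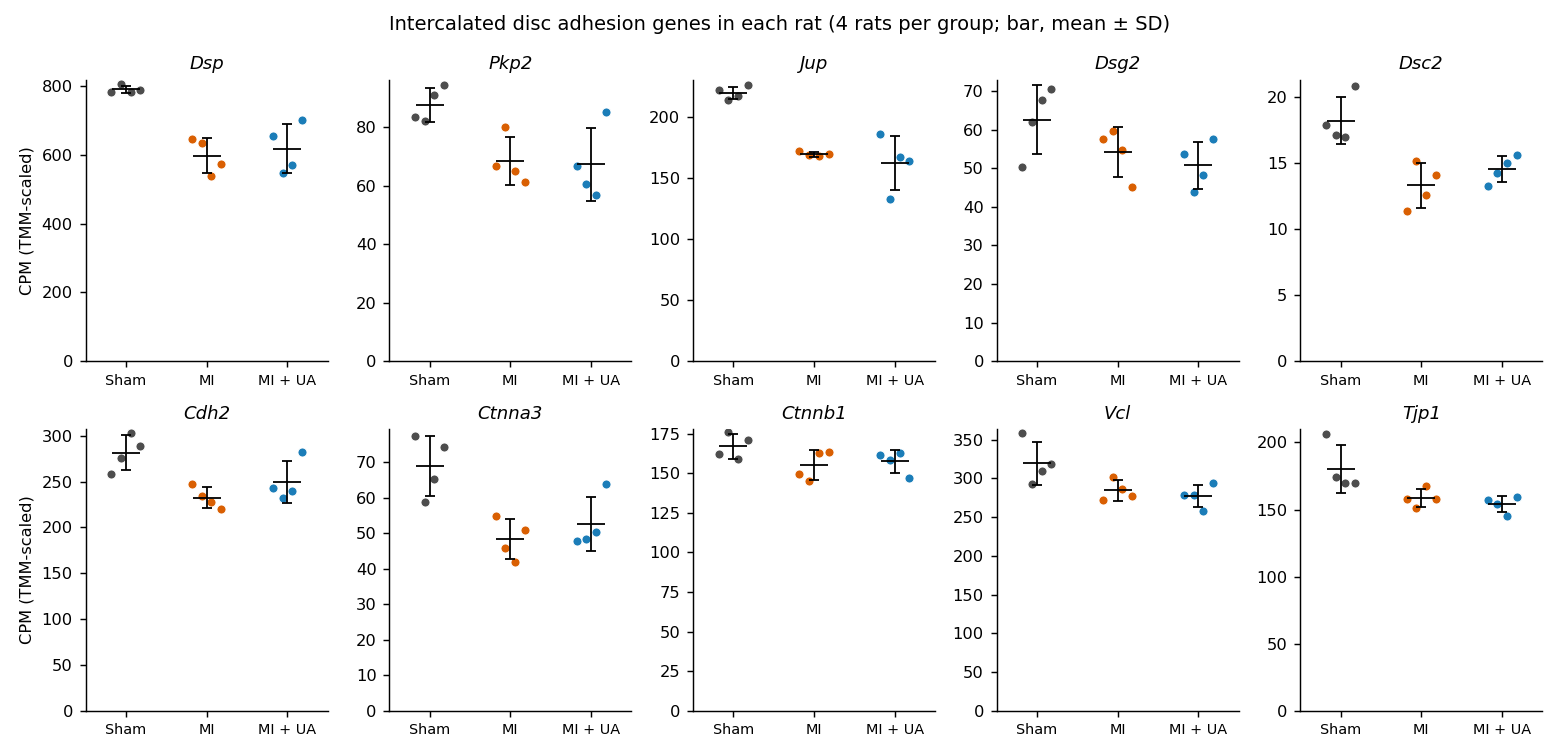
TMM-scaled CPM (linear axes from 0) of the 10 genes in each rat, by group, with horizontal bars for the mean and vertical bars for the SD (n = 4). The Sham rats of Dsp lie between 784 and 806 and all 8 infarcted rats between 538 and 701, while for Ctnnb1 the groups overlap, with Sham at 159 to 176 and the infarcted rats at 145 to 163.

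Dsp, the plaque protein that anchors desmin, was at 784, 806, 784 and 791 CPM in Sham rats 12, 17, 32 and 38. In MI rats 36, 57, 61 and 89 it was at 646, 635, 538 and 573 CPM. The means were 791 ± 10.4 in Sham and 598 ± 51.1 in MI (SD, n = 4), which is -0.40 on the log2 scale with a standard error of 0.087 (adjusted p = 0.00377 by edgeR). The groups were well apart, and the Sham rats lay within a narrow band. Jup, the armadillo protein shared by both junction types, was at 222, 215, 218 and 226 CPM in Sham and at 173, 169, 168 and 169.8 CPM in MI. Its log2 fold change was -0.37 with a standard error of 0.087 (adjusted p = 0.00657 by edgeR), and neither group spread much, with SDs of 5.13 and 1.96 CPM. Both genes kept an adjusted p-value under 0.05 with any 1 of the 8 rats left out (largest 0.0201 for Dsp and 0.0248 for Jup).

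Pkp2, which links the desmosomal cadherins to Dsp, was at 83.4, 82.0, 90.9 and 94.2 CPM in Sham. In MI it was at 66.8, 80.0, 65.1 and 61.1 CPM, with rat 57 just below the lowest Sham rat. The log2 fold change was -0.37 with a standard error of 0.11 (adjusted p = 0.0396 by edgeR). This call is fragile: it held in 1 of the 8 fits that each left out a rat, the one without rat 57 (adjusted p = 0.0141). Without any of the other 7 rats it was lost, with an adjusted p-value of up to 0.129 (without rat 89), and it was lost with rat 66 in MI (0.0592).

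The desmosomal cadherins differed in what passed the test. Dsc2 was at 17.9, 17.2, 17 and 20.9 CPM in Sham and at 11.4, 15.2, 12.6 and 14.1 CPM in MI, or -0.47 on the log2 scale with a standard error of 0.12 (adjusted p = 0.0133 by edgeR). All MI rats were lower, and the call was lost without Sham rat 38, the highest (adjusted p = 0.0651). Dsg2 was at 50.3, 61.9, 67.7 and 70.6 CPM in Sham and at 57.7, 59.6, 54.7 and 45.1 CPM in MI. The lowest Sham rat, 12, was below 3 of the MI rats, and the log2 fold change of -0.21 (95% interval -0.45 to 0.03) did not pass (edgeR adjusted p = 0.288). It was -0.13 without rat 89 and -0.30 without Sham rat 12. That does not show the cadherins to differ in response: the log2 ratio of Dsc2 to Dsg2 within each library, a test added after the values had been seen, was lower in MI by a difference of -0.25 (two-sided exact permutation test, p = 0.229), and by -0.15 without rat 36 or -0.16 without Sham rat 12.

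In the fascia adherens, Ctnna3 had the largest fall of the 10 with all rats, although Dsc2 fell more without rat 12, 57 or 61. Ctnna3 was at 77.4, 58.7, 65.3 and 74.2 CPM in Sham and at 54.8, 45.8, 41.8 and 51.0 CPM in MI, or -0.51 on the log2 scale with a standard error of 0.11 (adjusted p = 0.00493 by edgeR). The groups did not overlap, and the call held with any 1 rat left out (adjusted p up to 0.0241). Cdh2, the N-cadherin of the disc, was at 258, 276, 303 and 289 CPM in Sham and at 247, 234, 227 and 220.5 CPM in MI. Its log2 fold change was -0.28 with a standard error of 0.081 (adjusted p = 0.0313 by edgeR). The call was lost without rat 17 (adjusted p = 0.0556), 32 (0.109), 38 (0.0829), 61 (0.0811) or 89 (0.0966), and with rat 66 in MI (0.0957).

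With all rats, Ctnnb1, Tjp1 and Vcl were closest to Sham. Without rat 32, 38 or 89, Dsg2 was closer to Sham than Tjp1 and Vcl. Ctnnb1 was at 162, 176, 159 and 171 CPM in Sham and at 149, 145, 163 and 163 CPM in MI, with a log2 fold change of -0.10 (95% interval -0.26 to 0.05, edgeR adjusted p = 0.439). The ranges overlapped. Tjp1 was at 207, 174, 169.5 and 169.5 CPM in Sham and at 158, 151, 167 and 158 CPM in MI. Its rats did not overlap, yet the log2 fold change of -0.18, with a standard error of 0.080, had an adjusted p-value of 0.160 in edgeR's test. Vcl was at 358, 292, 310.1 and 318 CPM in Sham and at 272, 302, 286 and 277 CPM in MI. Rat 57 overlapped the Sham range, and the log2 fold change was -0.17 with a standard error of 0.079 (adjusted p = 0.191 by edgeR). For both Tjp1 and Vcl, Sham rat 12 was the highest, and without it the log2 fold change was -0.11 for each.

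**Figure D2:**
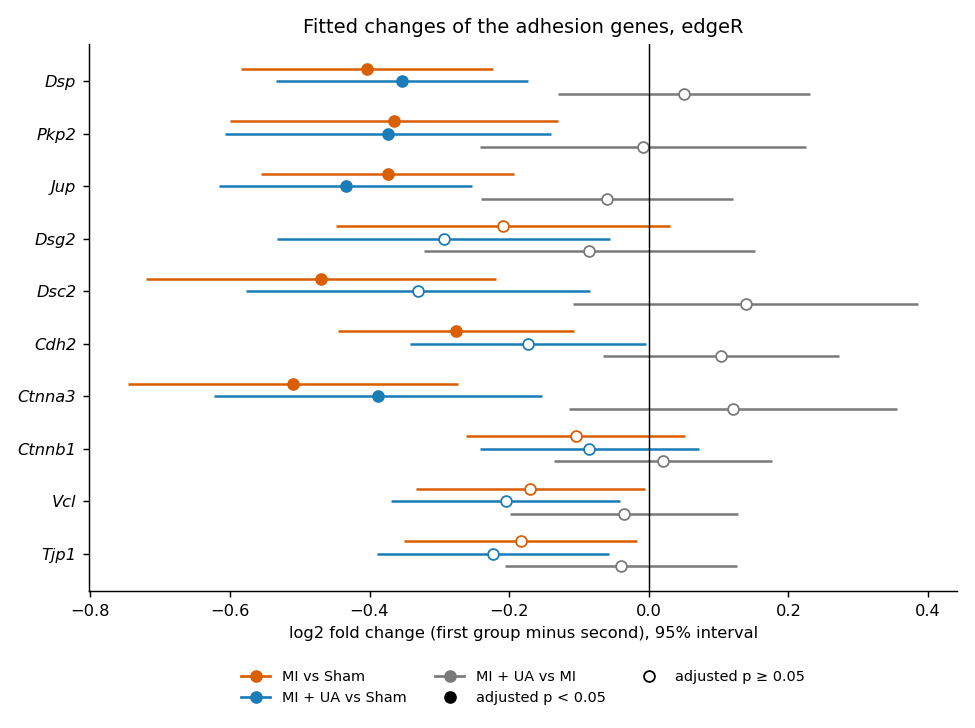
Fitted log2 fold change (point) and its 95% interval (line) of each gene in MI versus Sham, MI + UA versus Sham and MI + UA versus MI, with filled points for an adjusted p-value under 0.05. In MI versus Sham 6 points are filled and none lies above 0, while all 10 intervals of MI + UA versus MI include 0.

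The tissue itself also changed in these libraries. Of 11 cardiomyocyte markers tested, 10 fell in MI (median log2 fold change -0.41), and their summed level was 53068 to 59780 CPM in Sham, 37296 to 43765 in MI and 39217 to 51208 in MI + UA. Most of that sum was Ttn, with means of 35322 CPM in Sham, 25890 in MI and 27373 in MI + UA. Of 10 fibroblast markers 8 rose (1206 to 1539 CPM summed in Sham, 2322 to 3761 in MI), as did 6 of 7 macrophage markers and 4 of 6 markers of smooth muscle cells and pericytes. Of 7 endothelial markers 1 fell, Kdr, and the summed level was 698 to 816 CPM in Sham and 627 to 746 in MI. Epithelial and mesothelial cells also carry desmosomes. Of 5 such markers tested none was called, their summed level was 9.09 to 16.3 CPM in Sham and 11.9 to 15.1 in MI, and most of that sum was Wt1, with 351 reads in all Sham libraries together and 524 in MI. The rest had few reads: Epcam went from 3 to 2, Upk3b from 2 to 2, Msln from 12 to 29 and Cldn4 from 1 to 15 (unadjusted p = 0.0397, edgeR adjusted p = 0.181). The keratin genes Krt8 and Krt18 did not reach the minimum of 10 reads. The part of these shifts in the falls of the 10 genes was not tested.

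**Figure D3:**
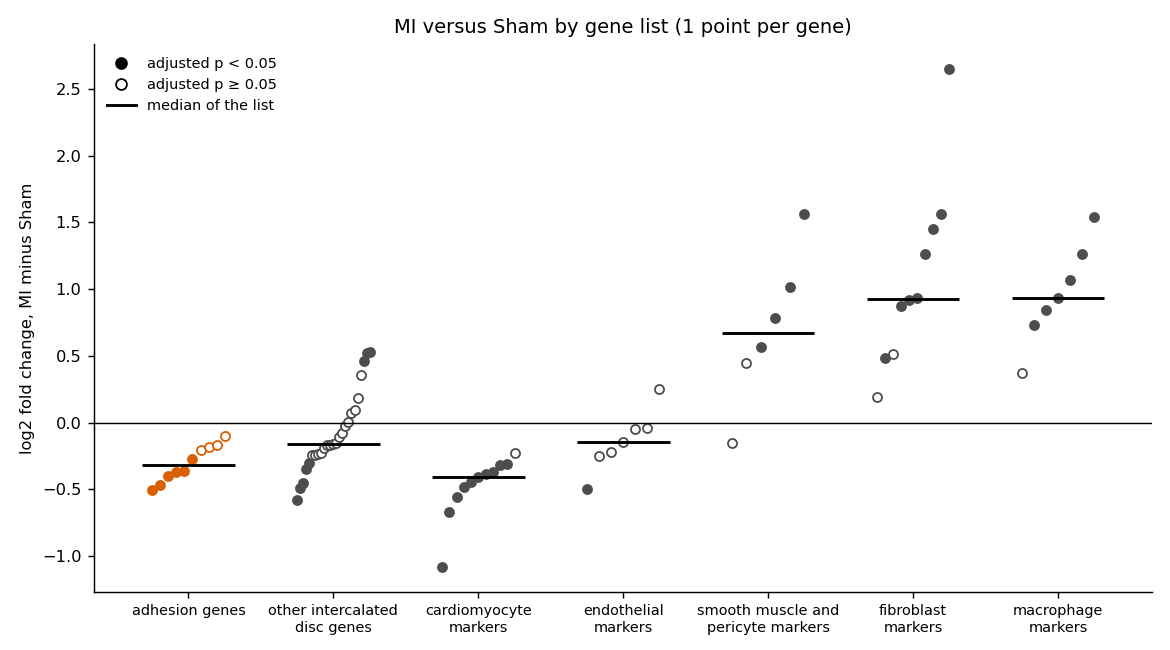
Log2 fold change in MI versus Sham of each gene of 7 lists (1 point per gene, filled where the adjusted p-value is under 0.05), with a bar at the median of the list. The 10 adhesion genes lie between -0.51 and -0.10, with a median of -0.32 against -0.41 for the cardiomyocyte markers.

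The 10 genes were also set against the muscle markers, which moves all of them by the same amount in a library. For each library the mean log2 CPM of the 11 cardiomyocyte markers was subtracted from that of the gene, as a description with no test. The difference between MI and Sham was then -0.03 for Ctnna3, 0.02 for Dsc2, 0.07 for Dsp, 0.10 for Jup and 0.11 for Pkp2, and the groups overlapped for each. It was 0.20 for Cdh2 and 0.37 for Ctnnb1, with every MI rat above every Sham rat. Dsg2, Tjp1 and Vcl lay between, at 0.28, 0.30 and 0.31, and overlapped. The markers themselves fell by unequal amounts in MI, with log2 fold changes from -1.08 to -0.23. Myh6, for example, went from a mean of 5864 CPM in Sham to 2772 CPM in MI. These differences therefore depend on the markers chosen, and whether the markers changed within muscle cells was not tested.

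**Figure D4:**
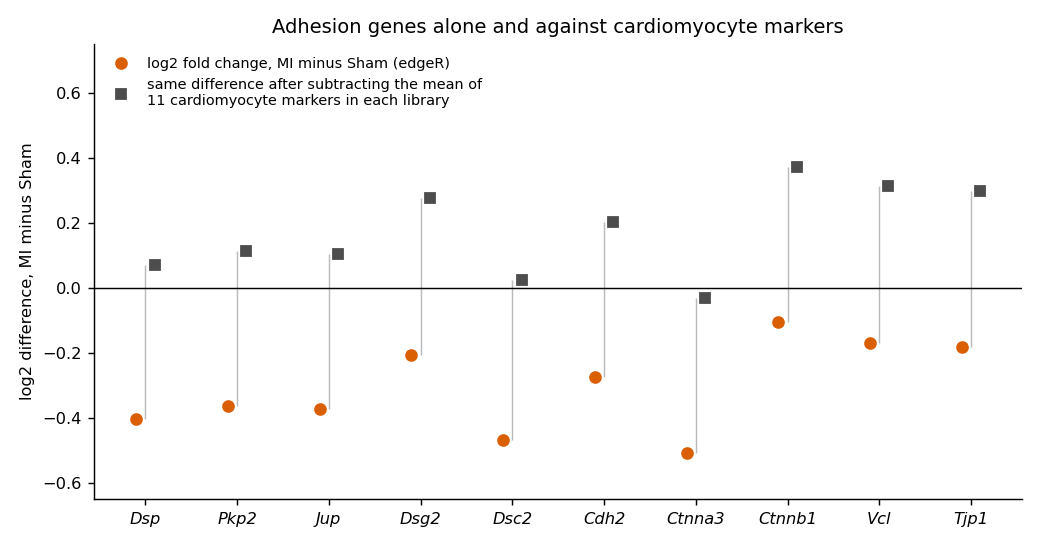
Difference between MI and Sham in log2 units for each gene as fitted (circles) and after the mean of 11 cardiomyocyte markers was subtracted in each library (squares). The squares of Ctnna3, Dsc2, Dsp, Jup and Pkp2 lie between -0.03 and 0.11 and that of Ctnnb1 at 0.37.

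Ratios of related genes within a library do not depend on its scaling. The ratio of Jup to Ctnnb1, the pair of armadillo proteins that compete for the cadherin tail, was chosen after the values had been seen. On the log2 scale it was 0.46, 0.29, 0.46 and 0.41 in Sham and 0.21, 0.22, 0.05 and 0.06 in MI. All 16 pairs of rats had the lower value in MI, a difference of -0.27 with p = 0.0286 in a two-sided exact permutation test, which cannot go lower with 4 rats against 4, and 0.0857 after adjustment over the 6 tests added. In MI + UA it was 0.21, -0.26, 0.04 and 0.16, again below all Sham rats (difference -0.36, exact permutation p = 0.0286, adjusted 0.0857). Leaving out any 1 rat kept both groups below Sham at an exact permutation p of 0.0571, which cannot go lower with 3 rats against 4. The ratio of Ctnna3 to Ctnna1 was lower in MI by -0.36 (exact permutation p = 0.0857), and it was lower in 14 of 16 pairs. The ratio of Cdh2 to Cdh11, a cadherin of mesenchymal cells, was 3.81, 3.64, 4.04 and 4.09 in Sham and 3.12, 3.75, 2.66 and 2.56 in MI. Rat 57 alone stood among the Sham rats (difference -0.87, exact permutation p = 0.0571). In MI + UA it was 2.99, 2.76, 3.01 and 3.56, below Sham in 16 of 16 pairs (difference -0.82, exact permutation p = 0.0286, adjusted 0.257). These last 2 ratios belong to a family of 9 tests, and after adjustment over it their smallest p-value was 0.257.

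**Figure D5:**
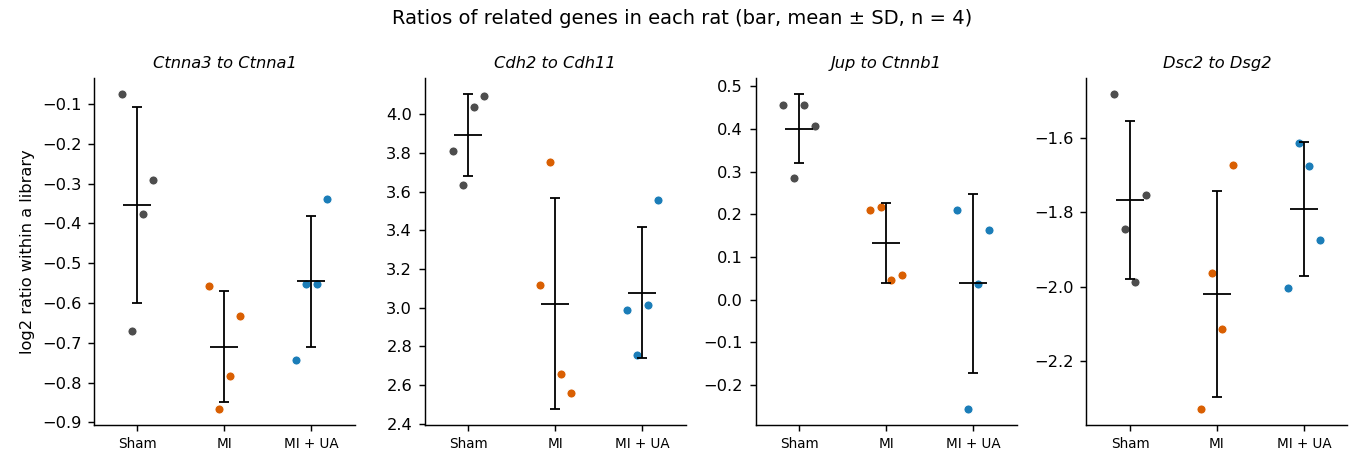
Log2 ratio of related genes in each rat, by group, with horizontal bars for the mean and vertical bars for the SD (n = 4). The axes do not start at 0. The ratio of Jup to Ctnnb1 lies between 0.29 and 0.46 in Sham and between 0.05 and 0.22 in MI.

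The second comparison, MI + UA versus MI, asks whether UA altered these genes in infarcted hearts, and it shares the MI rats with the first. None of the 10 was called, and none had an unadjusted p-value under 0.05. Over all genes edgeR called 0 of 18182 (0.0%), with 689 (3.79%) at an unadjusted p-value under 0.05, and DESeq2 also called 0, with 481. The log2 fold changes of the 10 genes ran from -0.09 (Dsg2) to 0.14 (Dsc2), 5 on each side of 0, and the groups overlapped for each gene. With rat 66 in MI they ran from -0.22 (Pkp2) to 0.07 (Ctnnb1), and only Dsc2 (0.04) and Ctnnb1 were above 0.

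Dsp was at 656, 547, 571 and 701 CPM in MI + UA rats 29, 58, 64 and 66, spread over the MI range and beyond it on the upper side. The log2 fold change from MI was 0.05 (95% interval -0.13 to 0.23). Jup was at 186, 133, 167 and 165 CPM, with rat 58 the lowest of all 12 rats, and its log2 fold change was -0.06 (95% interval -0.24 to 0.12). Its SD was 22.3 CPM here and 1.96 CPM in MI. Pkp2 was at 66.6, 60.6, 56.8 and 85.0 CPM, with rat 66 in the Sham range and the rest within or below the MI range (log2 fold change -0.01, 95% interval -0.24 to 0.23). Dsg2 was at 53.7, 43.8, 48.2 and 57.6 CPM and Dsc2 at 13.3, 14.3, 15.0 and 15.6 CPM. The interval was -0.32 to 0.15 for Dsg2 and -0.11 to 0.39 for Dsc2.

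In the fascia adherens genes the highest MI + UA rat was again 66. Cdh2 was at 243, 232, 240.0 and 282 CPM, a log2 fold change of 0.10 (95% interval -0.07 to 0.27), and Ctnna3 at 47.9, 48.4, 50.2 and 63.7 CPM, a log2 fold change of 0.12 (95% interval -0.11 to 0.36). With rat 66 in MI these became -0.02 and -0.08. That of Dsp became -0.06, that of Pkp2 -0.22 and that of Dsg2 -0.17, none of them called. Ctnnb1 was at 161, 158, 163 and 147 CPM, here with rat 66 the lowest, and its log2 fold change was 0.02 (95% interval -0.14 to 0.18). Vcl was at 278, 278, 258 and 294 CPM and Tjp1 at 157, 154, 145 and 159 CPM, each within 0.04 of MI on the log2 scale. Every interval included 0, which does not show that a gene was the same in both groups.

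The third comparison, MI + UA versus Sham, sets the treated infarcted hearts against the uninfarcted ones. All 10 genes were below Sham, and 4 fell: Jup, Ctnna3, Pkp2 and Dsp. Of all genes tested 4.27% were called lower, and 47.7% had a log2 fold change below 0. The log2 fold change was -0.43 for Jup with a standard error of 0.087 (adjusted p = 0.00267 by edgeR) and -0.35 for Dsp with the same standard error (adjusted p = 0.0118), and both were called with any 1 rat left out. It was -0.37 for Pkp2 (edgeR adjusted p = 0.0395) and -0.39 for Ctnna3 (adjusted p = 0.0327). The call of Pkp2 held in 1 of 8 such fits, without rat 66 (adjusted p = 0.00199), and that of Ctnna3 in 2, without rat 66 (0.00450) or 17 (0.0207). Otherwise the adjusted p-value reached 0.130 for Pkp2 (without rat 64) and 0.113 for Ctnna3 (without rat 29).

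Every MI + UA rat was below every Sham rat for 4 genes (Dsp, Jup, Dsc2 and Tjp1), as for 6.46% of all genes tested. Dsc2 had a log2 fold change of -0.33 (edgeR adjusted p = 0.0884) and Tjp1 of -0.22 (adjusted p = 0.0880). Dsg2, at -0.29, was called without Sham rat 12 (adjusted p = 0.0363) and otherwise not (0.124 with all rats). Cdh2 and Vcl were at -0.17 and -0.21, with edgeR adjusted p-values of 0.215 and 0.116, and Ctnnb1 at -0.08 (0.572), or -0.05 without rat 66. DESeq2 called Tjp1 (adjusted p = 0.0309) and Vcl (0.0425) as well. Since the MI and MI + UA rats are set against the same Sham rats, the 2 comparisons with Sham are not independent of each other.

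Other genes of the disc, 25 from a list of its gap junction, filament and plaque genes, moved in both directions in MI. Of these 5 fell and 3 rose, where 5.53% and 5.82% of all genes tested did, with a median log2 fold change of -0.16. Gja1, connexin 43 of the gap junction, went from 609, 489, 593 and 572 CPM in Sham to 383, 442, 438 and 349 CPM in MI, which is -0.49 on the log2 scale with a standard error of 0.12 (adjusted p = 0.00835 by edgeR). Every MI rat was lower. Cxadr, the coxsackie and adenovirus receptor, an adhesion protein of the disc, had the largest fall of the 25, with a log2 fold change of -0.58 (edgeR adjusted p = 0.00623). The others that fell were Tmem65 (-0.46), Myzap (-0.35) and the desmin gene Des (-0.30). Des was called in 4 of the 8 fits that left out a rat (adjusted p up to 0.0690, without rat 38) and Myzap in 7 (0.0525 without rat 61), and without rat 61 the number of genes that fell was 3.

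The 3 that rose were Xirp2 (0.53), Lima1 (0.52) and the zyxin gene Zyx (0.46), whose protein acts at focal adhesions too. Zyx and Lima1 were called with any 1 rat left out and Xirp2 in 5 of 8 fits (adjusted p up to 0.0777, without rat 57). Among the catenin and plakophilin relatives Ctnna1 was at -0.15, Ctnnd1 (p120 catenin) at -0.08 and Pkp4 at -0.03 on the log2 scale, none of them called, and Nrap, which sits where myofibrils meet the disc, was at -0.24 (edgeR adjusted p = 0.104).

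With UA, 0 of the 25 were called against MI. Gja1 was at 428, 431, 441 and 635 CPM in MI + UA, so that 3 rats lay within the upper MI range and rat 66 above all Sham rats. Its log2 fold change from MI was 0.26 (unadjusted p = 0.0355, edgeR adjusted p = 1.00), and with rat 66 in MI it was -0.05. Cxadr had a log2 fold change of 0.28 (unadjusted p = 0.0472, edgeR adjusted p = 1.00). Rat 66 was the highest at 13.8 CPM, against 10.1 to 11.2 in the other MI + UA rats. Without it the log2 fold change of Cxadr was 0.16, and with it in MI 0.03. Against Sham, 5 of the 25 fell in MI + UA (Lmo7, Tmem65, Des, Nrap and Myzap, from -0.45 to -0.29) and 3 rose (Xirp2, Lima1 and Zyx, from 0.56 to 0.31). Of all genes tested, 4.27% fell and 5.16% rose. The 5 were 2 without rat 38 and 3 without rat 12, 58 or 64, and the 3 were 1 without rat 17, 32 or 64.

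Relatives of the 10 genes that belong to other cells were also measured. Of 18 such paralogs 15 had enough reads to be tested, and 1 with reads in every library rose in MI, Cdh11. It went from 18.3, 22.1, 18.3 and 16.8 CPM in Sham to 28.4, 17.2, 36 and 37.3 CPM in MI (log2 fold change 0.67, edgeR adjusted p = 0.0146). Rat 57 was within the Sham range, and the call was lost in 3 of the 8 fits that left out a rat (adjusted p up to 0.0658, without rat 89). Dsc3 and Cdh3, a desmocollin and a cadherin of stratified and glandular epithelia, had 0 reads in the 4 Sham libraries together. They reached the minimum of 10 reads through the infarcted groups alone, so that a higher level there was set by the filter, and they are given as a description. They had 28 and 19 in MI and 31 and 16 in MI + UA. Against a floor of 3 reads over the Sham group, the pooled level of Dsc3 was 6.50 times the floor in MI and 5.99 times in MI + UA. That of Cdh3 was 4.41 and 3.09 times the floor. These multiples take no account of the spread between rats. Rat 66 gave 24 of the 31 reads of Dsc3 in MI + UA, while rat 64 had 0, and without rat 66 the multiple was 2.09. Rat 29 gave 10 of the 16 reads of Cdh3 in MI + UA, and without it the multiple was 1.77. In MI, rat 89 gave 15 of the 28 reads of Dsc3, and without it the multiple was 4.27. Cdh5, VE-cadherin of the endothelium, was at -0.25 (edgeR adjusted p = 0.111) and Cdh13 (T-cadherin) at 0.17 (adjusted p = 0.603). In MI + UA versus Sham, Cdh19, a cadherin of Schwann cells, rose (log2 fold change 1.47, edgeR adjusted p = 0.0135). It was at 6.15, 3.18, 3.37 and 3.82 CPM in Sham and at 10.6, 24.4, 6.63 and 5.96 CPM in MI + UA, with rat 58 far above the rest and rat 66 below the highest Sham rat. In MI, Cdh19 was at 5.41, 6.27, 7.16 and 10.0 CPM, and 0 of the 15 paralogs were called in MI + UA versus MI. Without rat 58 the log2 fold change was 0.91 (adjusted p = 0.0431), and without Sham rat 38 the call was lost (adjusted p = 0.0504). Of 6 neural and glial markers, a list that holds Cdh19 too, 1 rose in MI and 4 in MI + UA against Sham. Their summed level was 20.0 to 22.3 CPM in Sham, 26.2 to 38.7 in MI and 28.0 to 87.7 in MI + UA, and its part in the rise of Cdh19 was not tested.

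Across rats the 10 genes varied together more over all libraries than within groups. The median Pearson r of log2 CPM over the 45 pairs of genes was 0.68 over the 12 libraries, and 0.10 after each group's mean was subtracted. Within groups the pairs ran from -0.72 (Pkp2 with Ctnnb1) to 0.83 (Dsg2 with Cdh2), and Dsp with Pkp2 was at 0.73. The gene with the pattern most like that of Dsp, of 10930 compared over the 12 libraries, was Fbxo40 (r = 0.976). For Pkp2 it was Ldb3 (0.981), for Jup Mapk8ip1 (0.953), for Ctnna3 Erc1 (0.954) and for Tjp1 Ube4b (0.964). For Dsc2 it was Smim19 (0.950), for Cdh2 Rilpl1 (0.940), for Vcl Kbtbd12 (0.940) and for Dsg2 Limch1 (0.915). That of Ctnnb1 was most like Cd93, an endothelial and myeloid gene, at the lowest r of the 10 (0.895). These are descriptions of 12 libraries that share 3 groups, and each was the highest of many.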

How the data were processed

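RNA was taken from heart sections of 4 Sham, 4 MI and 4 MI + UA rats and sequenced as read pairs from strand-specific libraries after ribosomal RNA depletion, although the labels call the molecule polyA RNA. The submitters' processing notes name STAR 2.6.1c, HTSeq and MultiQC 1.8 and the build mRatBN7.2. The deposited values are raw read counts per Ensembl gene, which the authors did not normalize. The strand setting of the counting is not given in the sources used here. Reads of genes that overlap on opposite strands may have been set aside or counted for the wrong gene. The 5 summary lines of the counter, of which reads on no gene made up 42.2% of the table's total, were left out. A further MI + UA library, which the authors set aside as an outlier in a principal component analysis, is not analysed here.

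The model kept the genes with 10 or more counts over all libraries and was fitted in edgeR 4.0.16 (R 4.3.3), with TMM factors, the 3 groups in 1 model and quasi-likelihood tests. CPM came from the same fit, and log2 CPM used a prior count of 1. Ratios were compared with exact permutation tests over rats (scipy 1.17.1, 70 groupings of 4 and 4). The fit was tested on simulated counts. Depth ran from 6228706 to 19031695 reads on genes, with 4 rats a group. Alternatives were DESeq2 1.42.0, other filters and scalings, only the groups compared, rat 66 in MI, a prior count of 5 for ratios, and each rat left out. The genes named are all 10 adhesion genes, the listed disc genes and paralogs that were called, and Ctnna1, Ctnnd1, Pkp4, Gja1, Nrap, Xirp2, Des, Cdh5, Cdh11 and Cdh13 in any case. Some listed genes, and 1 ratio that counts in the 9 ratio tests adjusted together, are not reported here. The genes, lists and tests were chosen with earlier results of these data known.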

Additional observations from a re-analysis of the deposited data

Results flagged for a closer look

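A rat was taken to stand apart where its gap to the nearest rat of its group, divided by the range of the group, was above Dixon's 95% critical value for 4 samples. Chance passes that value in about 1 of 20 groups. Of 93 groups of 4 rats examined, over the genes and ratios named, 4 passed it, where 4.65 would by chance.

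Ctnna3 in MI + UA was highest in rat 66, at a log2 CPM of 6.0 against 5.58 to 5.65 in the other rats (ratio 0.834). Gja1 in MI + UA was also highest in rat 66, at a log2 CPM of 9.31 against 8.74 to 8.78 (ratio 0.924). Tjp1 in Sham was highest in rat 12, at 7.69 against 7.41 to 7.45 (ratio 0.858). Myzap in MI was highest in rat 57, at 8.55 against 8.19 to 8.25 (ratio 0.836).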

How the results depend on the processing

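No paired analysis was possible because the groups share no rat numbers. In MI versus Sham the number of the 10 genes called was 6 with DESeq2, each other filter and each scaling, 4 with rat 66 in MI, and 3 to 6 with 1 rat left out (3 without Sham rat 38). In MI + UA versus Sham it was 4, 6 with DESeq2, and 2 to 4 with 1 rat left out (2 without rat 29, 32, 38, 58 or 64). In MI + UA versus MI it was 0 under every alternative run, and over all genes 3 were called with a minimum of 1 count and 0 to 1 with 1 rat left out (1 without rat 36). The log2 fold changes of the 10 genes kept their sign in both comparisons with Sham. In MI + UA versus MI, with rat 66 in MI, they turned to -0.064 (Dsp), -0.025 (Cdh2), -0.083 (Ctnna3) and -0.054 (Gja1), while Pkp2 moved from -0.0083 to -0.22 and Dsg2 from -0.085 to -0.17. With 1 rat left out they ran from -0.016 to 0.10 for Dsp, from -0.14 to 0.073 for Pkp2, from -0.14 to 0.025 for Jup and from -0.0093 to 0.052 for Ctnnb1, so that each changed sign. Pkp4 in MI versus Sham was at 0.0034 with rat 66 in MI and from -0.095 to 0.034 with 1 rat left out.

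The ratio of Cdh2 to Cdh11 with rat 66 in MI differed by -0.77 between MI and Sham (exact permutation p = 0.0317), by -0.98 between MI + UA and Sham (0.0571) and by -0.21 between MI + UA and MI. With 1 rat left out, the last 2 ran from -0.98 to -0.71 and from -0.10 to 0.30. With 1 rat left out the ratio of Jup to Ctnnb1 in MI + UA versus MI ran from -0.15 to 0.0042 and that of Dsc2 to Dsg2 in MI + UA versus Sham from -0.097 to 0.071, and the last was 0.0033 with rat 66 in MI. The causes were not tested. Depth limits Dsc2 most of the 10 genes, with as few as 97 reads in a library.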
